A study of Bos taurus with 22 samples.

Results

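BANK1 and P2RY8 are genes of lymphocyte signalling, and their transcripts were followed here in the circulating white blood cells of 22 heifers. The genes were matched by symbol to their Ensembl identifiers, and they are 2 of the 27607 genes in the count table and 2 of the 13535 genes that passed the filter on low counts. They were chosen by their place among the genes of lowest p-value between Fertile and Sub-Fertile heifers in these same libraries, P2RY8 near the top and BANK1 well below it, so the levels in the fertility groups are given as a description, with no test. The contrasts of breed and of the combination of breed and fertility did not enter the choice, while the variation among heifers of one group did, as a part of each p-value.

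The heifers were purebred Holstein or Angus, and blood was drawn at the first artificial insemination. There were 5 Holstein Fertile, 5 Holstein Sub-Fertile, 5 Angus Fertile and 7 Angus Sub-Fertile heifers, and polyadenylated RNA from the buffy coat of each gave 1 library. Fertile heifers conceived at insemination 1 and later calved. Holstein Sub-Fertile heifers had needed at least 4 inseminations, and Angus Sub-Fertile heifers were not pregnant after 2 inseminations and time with a bull. Holstein heifers averaged 12 months of age and received a progesterone device for 5 days, while Angus heifers averaged 14 months and received it for 7 days. Breed therefore cannot be told apart from age, synchronization protocol and herd management.

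BANK1, the B cell scaffold protein with ankyrin repeats, is an adaptor that joins the B cell receptor to the kinase LYN and to the inositol trisphosphate receptors that release calcium inside the cell. P2RY8 is a receptor coupled to the G protein subunit encoded by GNA13, and in humans it restrains the migration of B cells and keeps them within germinal centres. Both proteins are thus known from B lymphocytes, BANK1 on the side of antigen signalling and P2RY8 on the side of cell position.

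BANK1 (ENSBTAG00000015297) lies on chromosome 6 from 22695492 to 23016141 of the ARS-UCD1.2 assembly, a span of 320650 bases with a gene model of 2997 bases. P2RY8 (ENSBTAG00000047839) lies on chromosome 3 from 119510492 to 119511556, and its gene model of 1065 bases is as long as its span, so it has no intron. The symbol P2RY8 rests on the study's annotation alone, since the RefSeq gene table used beside it lists no gene of that name. Both model lengths are multiples of 3, and if the models hold no untranslated region, fragments from such regions were not counted. The libraries held 12182400 to 49228035 counts, with a median of 23158374. BANK1 had 3479 to 18352 counts per heifer and P2RY8 had 200 to 1079, so counting error was larger for P2RY8. None of the 16 B cell markers that were looked for was paired with an identifier in the annotation used here, so the assignment of either transcript to B cells could not be checked in these libraries. In such bulk samples, fewer cells of a type and less RNA per cell cannot be told apart.

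BANK1 was the more abundant transcript in every heifer. Per kilobase of gene model, with CPM as the counts of a gene per 1000000 counts of its library, BANK1 averaged 118 ± 22.2 CPM and P2RY8 averaged 16.8 ± 2.18 CPM (SD, n = 22). The ratio of these levels ranged from 4.09 to 11.5 with a median of 7.23. It averaged 8.27 ± 2.09 in Holstein heifers (n = 10) and 6.28 ± 1.21 in Angus heifers (SD, n = 12). By group, the ratio ran from 4.09 to 9.42 in Holstein Fertile, from 8.08 to 11.5 in Holstein Sub-Fertile, from 4.26 to 7.18 in Angus Fertile and from 5.75 to 8.40 in Angus Sub-Fertile heifers. The ratios of Holstein Sub-Fertile heifers lay above all those of Angus Fertile heifers. The ratio joins the fertility differences by which both genes were chosen, so this separation is a description only.

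The level of BANK1 was 396.1, 307.7, 386.4, 445.3 and 238.3 CPM in Holstein Fertile heifers 6 to 10. In Holstein Sub-Fertile heifers 1 to 5 it was 341.6, 409.5, 511.6, 432.4 and 382.5 CPM. In Angus Fertile heifers 18 to 22 it was 244.6, 380.1, 344.7, 285.6 and 310.0 CPM. The highest value was that of Holstein Sub-Fertile heifer 3, and the lowest values were those of heifers 10 and 18, which are Fertile animals of different breeds. In the 7 Angus Sub-Fertile heifers BANK1 ran from 265 to 378 CPM, with a median of 348. The ranges of the 4 groups overlapped.

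P2RY8 was measured at 16.41, 19.61, 17.57, 16.80 and 20.70 CPM in Holstein Fertile heifers 6 to 10. In Holstein Sub-Fertile heifers 1 to 5 it was 13.67, 18.01, 15.86, 16.80 and 14.14 CPM. In Angus Fertile heifers 18 to 22 it was 20.38, 18.80, 21.92, 21.83 and 17.65 CPM. The lowest value was that of Holstein Sub-Fertile heifer 1 and the highest that of Angus Fertile heifer 20. In the 7 Angus Sub-Fertile heifers P2RY8 ran from 15.96 to 21.27 CPM, with a median of 17.04, and the ranges of the 4 groups overlapped. Heifers 10 and 18, lowest for BANK1, were the highest of the Holstein Fertile heifers and the middle value of the Angus Fertile heifers for P2RY8.

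**Figure D1:**
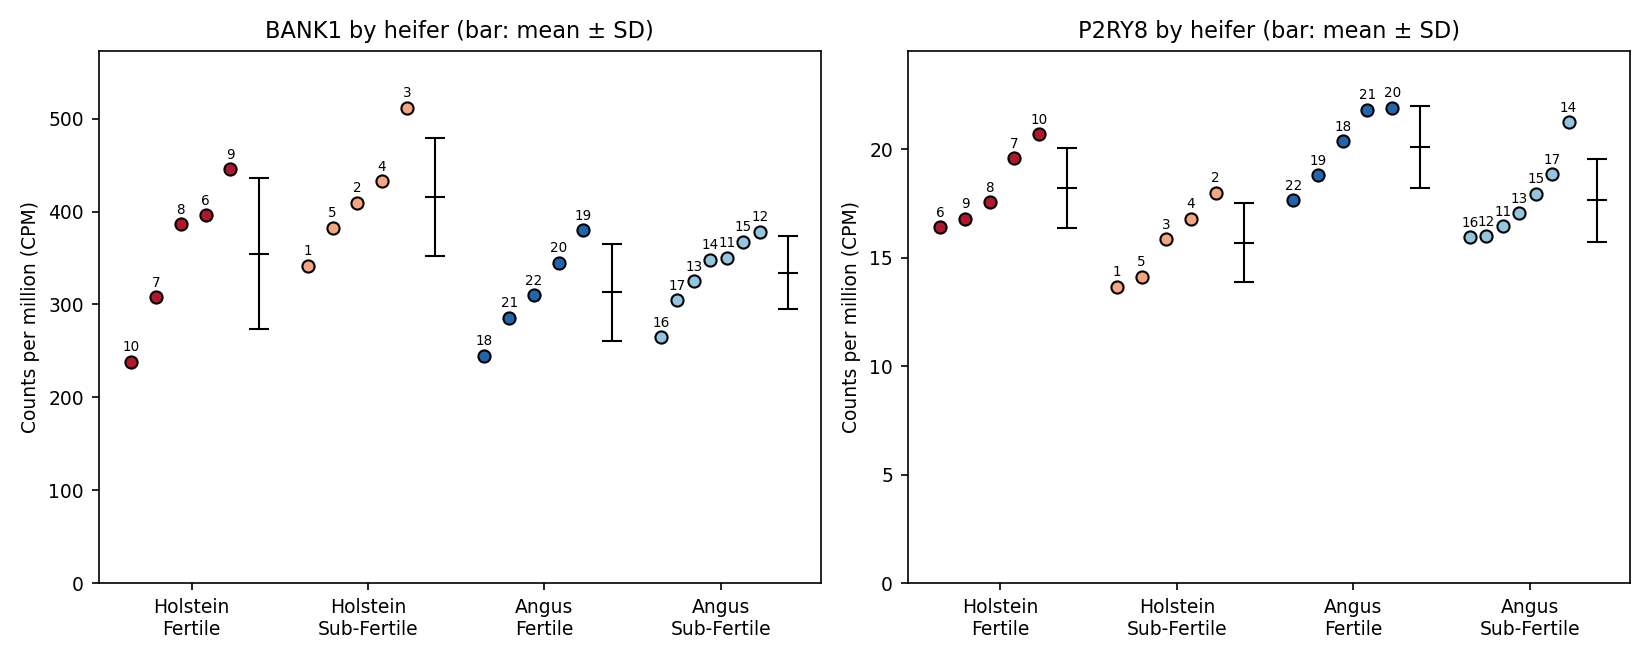
Level of BANK1 (left) and P2RY8 (right) in CPM for each of the 22 heifers, numbered, by breed and fertility group. Bars beside the points give the mean ± SD. BANK1 averaged highest and P2RY8 lowest in Holstein Sub-Fertile heifers, and the groups overlapped for both genes.

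The highest group mean of BANK1 and the lowest of P2RY8 were those of Holstein Sub-Fertile heifers, and the reverse held for Angus Fertile heifers. Holstein Fertile heifers averaged above Angus Sub-Fertile heifers for both genes. BANK1 averaged 354.8 ± 81.7 CPM in Holstein Fertile, 415.5 ± 63.5 in Holstein Sub-Fertile, 313 ± 52.3 in Angus Fertile (SD, n = 5 each) and 334 ± 39.3 in Angus Sub-Fertile heifers (SD, n = 7). P2RY8 averaged 18.22 ± 1.86 CPM in Holstein Fertile, 15.70 ± 1.81 in Holstein Sub-Fertile, 20.12 ± 1.88 in Angus Fertile (SD, n = 5 each) and 17.65 ± 1.91 in Angus Sub-Fertile heifers (SD, n = 7). For BANK1, groups that are neighbours in the order of their means were less than 1 SD apart. For P2RY8 that held for Holstein Fertile and Angus Sub-Fertile heifers, while Holstein Fertile lay below Angus Fertile heifers, and Holstein Sub-Fertile below Angus Sub-Fertile heifers, by slightly more than 1 SD. Within groups, the log2 level of BANK1 had an SD of 0.251, which stood at the 57.4 percentile of the genes tested. That of P2RY8 was 0.15, at the 26.2 percentile. These SDs are a description, since a small spread lowers the p-values by which the genes were chosen.

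By fertility, which chose the genes, BANK1 averaged 333.9 ± 68.3 CPM in Fertile (n = 10) and 368 ± 63.8 CPM in Sub-Fertile heifers (SD, n = 12). P2RY8 averaged 19.17 ± 2.02 CPM in Fertile and 16.84 ± 2.05 CPM in Sub-Fertile heifers. The fitted log2 difference of Fertile over Sub-Fertile was -0.16 for BANK1 (SE 0.0993) and 0.20 for P2RY8 (SE 0.0674). In Holstein heifers alone it was -0.23 for BANK1 and 0.21 for P2RY8, and in Angus heifers alone it was -0.09 and 0.19. Of all genes tested, 2.62% had an unadjusted edgeR p under 0.05 in this contrast (1.66% higher and 0.953% lower in Fertile heifers). An adjusted p under 0.05 was reached by 0 genes in edgeR and in DESeq2, with 354 and 529 genes at an unadjusted p under 0.05. Without heifers 10 and 18, the fertility difference of BANK1 was -0.06 and that of P2RY8 was 0.17 on the log2 scale.

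Between breeds, BANK1 was higher and P2RY8 lower in Holstein heifers, but neither difference passed the adjusted test. BANK1 averaged 385.1 ± 76 CPM in Holstein (n = 10) and 325.3 ± 44.2 CPM in Angus heifers (SD, n = 12). Its fitted log2 fold change of Holstein over Angus was 0.25 (SE 0.0989, 95% interval 0.0481 to 0.458), a fold of 1.19, with an unadjusted p of 0.0178 and an adjusted p of 0.437 by the quasi-likelihood test of edgeR. P2RY8 averaged 16.96 ± 2.18 CPM in Holstein and 18.68 ± 2.21 CPM in Angus heifers. Its log2 fold change was -0.16 (SE 0.0677, 95% interval -0.295 to -0.0149), with an unadjusted p of 0.0316 and an adjusted p of 0.443 in the same fit. Both genes were thus among the 10.6% of genes with an unadjusted p under 0.05 for breed, of which 4.56% of genes were higher and 6.08% lower in Holstein heifers. For P2RY8 the unadjusted p was under 0.05 in 15 of the 22 fits that left out 1 heifer (highest 0.0676), and it was 0.0876 with no fertility term and 0.07 with depth as a covariate. For BANK1 it was under 0.05 in 22 of 22 such fits. The median log2 fold change over all genes was -0.0134. No gene passed an adjusted p under 0.05 in edgeR, with 1440 genes at an unadjusted p under 0.05, and 10 genes passed in DESeq2, where the adjusted p was 0.227 for BANK1 and 0.335 for P2RY8.

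The libraries were not equally distant from each other, which bears on the breed difference. In 8 close pairs of heifers (1 with 11, 5 with 6, 7 with 16, 8 with 12, 10 with 18, 13 with 22, 14 with 20, 15 with 19) the coefficient of variation between the libraries was 0.0378 to 0.0829, against 0.0981 to 0.261 in the other 223 pairings. What the heifers of a close pair share is not given in the labels. The absolute log2 difference of BANK1 had a median of 0.0431 in close pairs and 0.287 in the other pairings, and that of P2RY8 had medians of 0.101 and 0.196. The pairs were chosen for likeness over genes with a mean CPM above 20, which include BANK1 but not P2RY8 (17.9 CPM). A smaller difference of BANK1 within close pairs is thus partly built into their choice. Of the close pairs, 4 joined a Holstein and an Angus heifer. With the close pairs as blocks, the breeds are compared only within these 4 pairs, which were chosen for likeness. The breed difference was then 0.0255 for BANK1 (unadjusted p = 0.606) and -0.0177 for P2RY8 (unadjusted p = 0.829), both with an adjusted p of 1 in edgeR. Genes at an unadjusted p under 0.05 for breed numbered 233 in this fit, against 1440 without blocks. Within these 4 pairs, Holstein minus Angus was above 0 in 2 for BANK1, from -0.0376 to 0.217, and above 0 in 3 for P2RY8, from -0.268 to 0.297. Pairs 7 with 16 and 8 with 12 set a Holstein Fertile against an Angus Sub-Fertile heifer, so breed and fertility changed together. There the differences were 0.217 and 0.0313 for BANK1 and 0.297 and 0.136 for P2RY8. Pairs 1 with 11 and 10 with 18 were alike in fertility. Their differences were -0.0353 and -0.0376 for BANK1 and -0.268 and 0.0221 for P2RY8. With heifers 10 and 18 left out, the breed differences were 0.275 and -0.176.

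**Figure D2:**
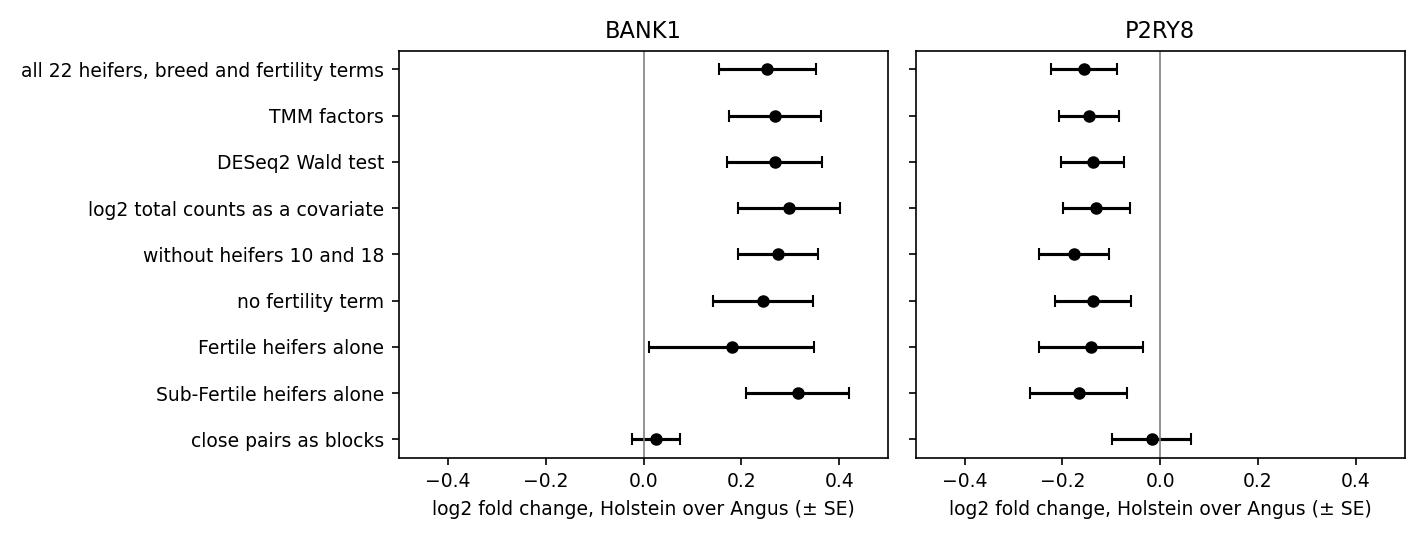
Log2 fold change of Holstein over Angus heifers for BANK1 (left) and P2RY8 (right) under 9 settings, with points for the estimate and bars for ± 1 SE. Estimates for BANK1 lay above 0 and those for P2RY8 below 0, and both came closest to 0 with close pairs as blocks, at 0.0255 and -0.0177.

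Within the 6 close pairs that joined a Fertile and a Sub-Fertile heifer, Fertile minus Sub-Fertile was above 0 in 6 of 6 for P2RY8, from 0.0436 to 0.297 (median 0.101), and above 0 in 4 of 6 for BANK1, from -0.0681 to 0.217 (median 0.04). Pairs 7 with 16 and 8 with 12 among them also joined a Holstein and an Angus heifer. With close pairs as blocks, fertility is compared only within the 6 pairs. The fertility difference was then 0.125 for P2RY8 and 0.0345 for BANK1, so the direction of BANK1 turned. These values belong to the contrast that chose the genes and are given without a test.

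Whether the fertility difference depended on breed was tested with an interaction term. The fertility difference of Holstein heifers minus that of Angus heifers was -0.13 for BANK1 (SE 0.201, 95% interval -0.553 to 0.283, adjusted p = 0.814) and 0.03 for P2RY8 (SE 0.138, 95% interval -0.26 to 0.314, adjusted p = 0.955) in edgeR. Neither gene was among the 10.4% of genes with an unadjusted p under 0.05 in this test (5.55% above and 4.85% below 0). The intervals are wide, and they hold interactions in either direction that are larger than the fertility differences themselves. With close pairs as blocks the interaction was 0.246 for P2RY8 (SE 0.118, unadjusted p = 0.0566, adjusted p = 0.731) and 0.0589 for BANK1 (adjusted p = 0.932) in edgeR. In that fit only pair 5 with 6 compares fertility within Holstein heifers. Pairs 13 with 22, 14 with 20 and 15 with 19 do so within Angus heifers, and the remaining close pairs joined a Holstein and an Angus heifer.

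Whether the genes varied together was also examined among heifers of one group. With the group means taken out, BANK1 and P2RY8 had a Pearson correlation of -0.181 over 22 heifers (permutation p = 0.45, adjusted p = 0.619 over 11 relations) and a Spearman correlation of -0.182 (permutation p = 0.452, adjusted p = 0.622). The Pearson value was -0.317 in Holstein heifers alone (n = 10, permutation p = 0.385) and -0.0178 in Angus heifers alone (n = 12, permutation p = 0.956). Over 14 units, with each close pair averaged, it was -0.261 (permutation p = 0.367). Heifers 10 and 18 were the farthest from the median of BANK1, and without them it was 0.0334 (permutation p = 0.899). Without heifer 10 alone it was 0.0106, and without heifer 18 alone it was -0.178, so the negative sign rested on heifer 10. With the group means left in, it was -0.451 (permutation p = 0.0357, adjusted p = 0.104), a value that holds the fertility contrast by which the genes were chosen.

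**Figure D3:**
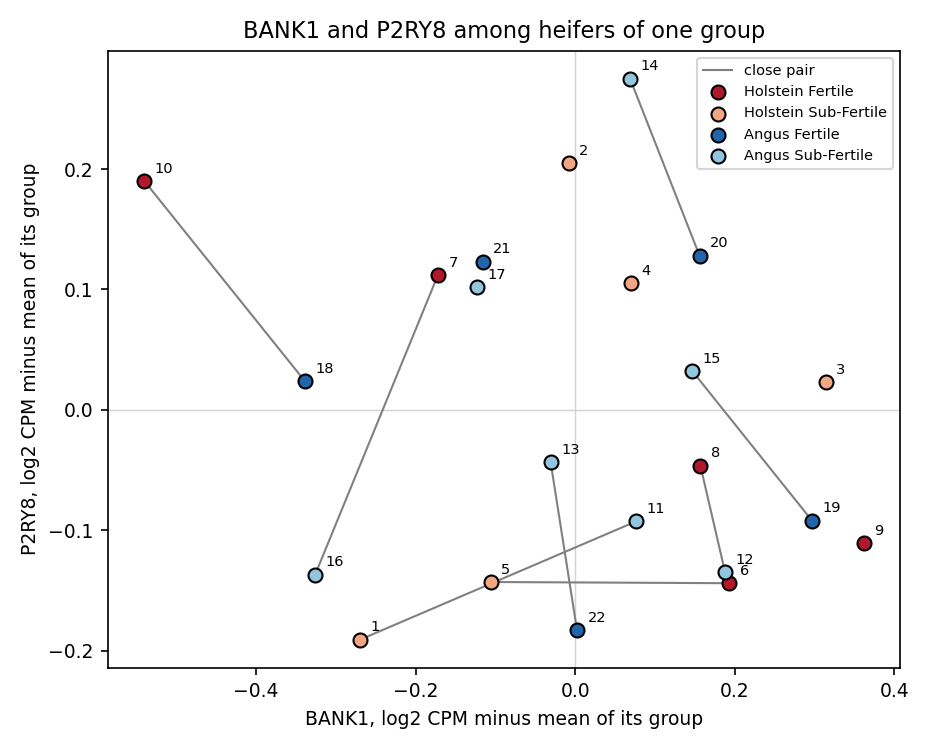
BANK1 (x axis) against P2RY8 (y axis) in each heifer, as log2 CPM minus the mean of its group, with close pairs joined by lines and heifers numbered. The correlation was -0.181, and it was 0.0106 without heifer 10, at the far left with a high P2RY8.

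BANK1 varied closely with a set of other genes. The 8 named genes most like it, by Pearson correlation over 22 heifers with group means taken out, were RUNX1T1 (0.913), COBLL1 (0.902), BCL11A (0.886), TLR10 (0.878), HABP4 (0.841), RRAS2 (0.835), UBTF (0.833) and LMO2 (0.817). BCL11A is a transcription factor that B cell development requires, and TLR10 is a Toll-like receptor that in humans is found mainly on B cells. RUNX1T1 is a transcriptional corepressor, LMO2 a cofactor of blood cell transcription factors, RRAS2 a small GTPase of the Ras family, and UBTF the factor that directs transcription of ribosomal RNA genes. The names at hand cover 1226 of the other 13534 genes tested, those that stand first by fertility p, so many genes without a name were left out. RUNX1T1 stood at rank 3 of all genes, and 66 of all genes had a correlation above 0.8 with BANK1, 11 of them named. The correlations are a description, since the points share library and close pairs.

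RUNX1T1 had 48.60, 31.06, 37.45, 59.95 and 23.74 CPM in Holstein Fertile heifers 6 to 10, and 38.64, 64.59, 73.80, 51.75 and 40.79 CPM in Holstein Sub-Fertile heifers 1 to 5. In Angus Fertile heifers 18 to 22 it had 19.86, 45.60, 35.59, 29.96 and 30.42 CPM, and in Angus Sub-Fertile heifers it ran from 30.9 to 43.2 with a median of 34.1. As for BANK1, heifer 3 was highest and heifers 10 and 18 were lowest. TLR10 ran from 51.34 to 116.4 CPM (median 76.02) in Holstein Fertile, from 68.05 to 101.4 (median 96.71) in Holstein Sub-Fertile, from 48.91 to 73.71 (median 56.06) in Angus Fertile and from 61.19 to 84.74 with a median of 68.91 in Angus Sub-Fertile heifers. Its lowest values were again those of heifers 18 and 10, while its highest was that of heifer 9.

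All 8 genes had a higher fitted level in Holstein than in Angus heifers, with log2 fold changes from 0.0372 to 0.466 (median 0.19), and all 8 had a lower level in Fertile than in Sub-Fertile heifers, with a median of -0.197. None passed the adjusted test for breed in edgeR. Since they follow BANK1 among heifers and were named for their fertility p-values, these directions are not independent of its own. Over 14 units the correlations with BANK1 ran from 0.776 to 0.921, and 6 of the 8 genes were again among the 8 most like it. Without heifers 10 and 18 they ran from 0.684 for LMO2 to 0.887 for COBLL1. With P2RY8 the same genes had correlations from -0.317 for RRAS2 to 0.157 for BCL11A.

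P2RY8 followed its most alike named genes less closely. Its 8 most alike named genes were STOML2 (0.753), TOP3A (0.725), PMM1 (0.722), MFSD3 (0.72), GPAA1 (0.699), TMEM223 (0.694), GCSAM (0.69) and ADSL (0.686), and STOML2 stood at rank 34 of all genes. None of the 8 genes with a correlation above 0.8 had a name here, and no gene was among the 8 most like both BANK1 and P2RY8. With genes without a name included, the highest correlation was 0.891 for P2RY8 and 0.917 for BANK1. For BANK1, 66 genes lay above 0.8. STOML2 is a protein of the inner mitochondrial membrane, TOP3A a DNA topoisomerase, PMM1 a phosphomannomutase, GPAA1 a subunit of the complex that attaches lipid anchors to proteins, and ADSL an enzyme of purine synthesis. GCSAM is a signalling protein known from germinal centre B cells in humans. The values of STOML2 ran from 75.1 to 92.9 CPM (median 78.0) in Holstein Fertile, from 69.6 to 89.3 (median 75.9) in Holstein Sub-Fertile, from 74.3 to 96.1 (median 86.8) in Angus Fertile and from 67.6 to 87.6 with a median of 76.8 in Angus Sub-Fertile heifers, with overlap of all groups.

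GCSAM had 15.95, 20.25, 14.76, 14.31 and 17.05 CPM in Holstein Fertile heifers 6 to 10, against 14.32, 48.85, 27.99, 32.85 and 16.12 CPM in Holstein Sub-Fertile heifers 1 to 5. Heifers 2, 3 and 4 stood above all other heifers of the study. GCSAM was the 1 gene of the 8 with a higher fitted level in Holstein heifers, at a log2 fold change of 0.338, and the 1 gene with a lower fitted level in Fertile heifers, at -0.324. The other 7 had breed differences from -0.0864 to -0.00129 and a higher level in Fertile heifers, the direction of P2RY8 itself. Over 14 units 4 of the 8 genes were again among the 8 most like P2RY8, with correlations from 0.622 to 0.787, and without heifers 10 and 18 they ran from 0.648 to 0.738.

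**Figure D4:**
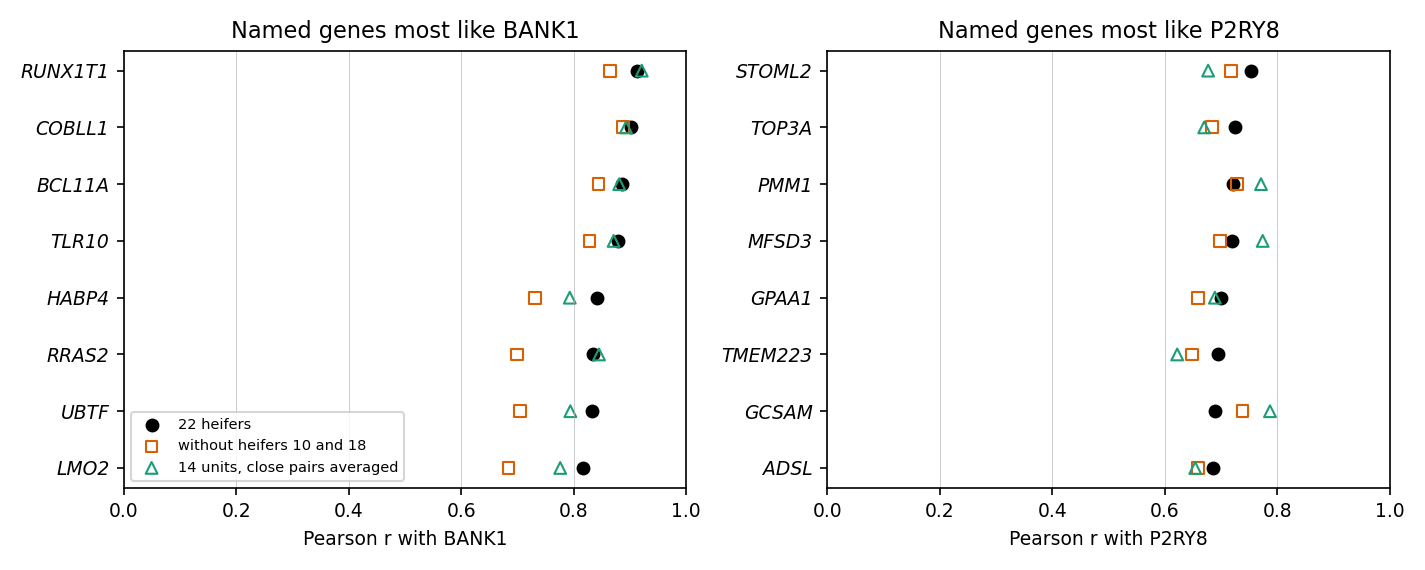
Pearson correlation of the 8 named genes most like BANK1 (left) and P2RY8 (right), with group means taken out. Filled circles use 22 heifers, squares leave out heifers 10 and 18 and triangles average the close pairs to 14 units. Values ran from 0.817 to 0.913 for BANK1 and from 0.686 to 0.753 for P2RY8 over 22 heifers.

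**Figure D5:**
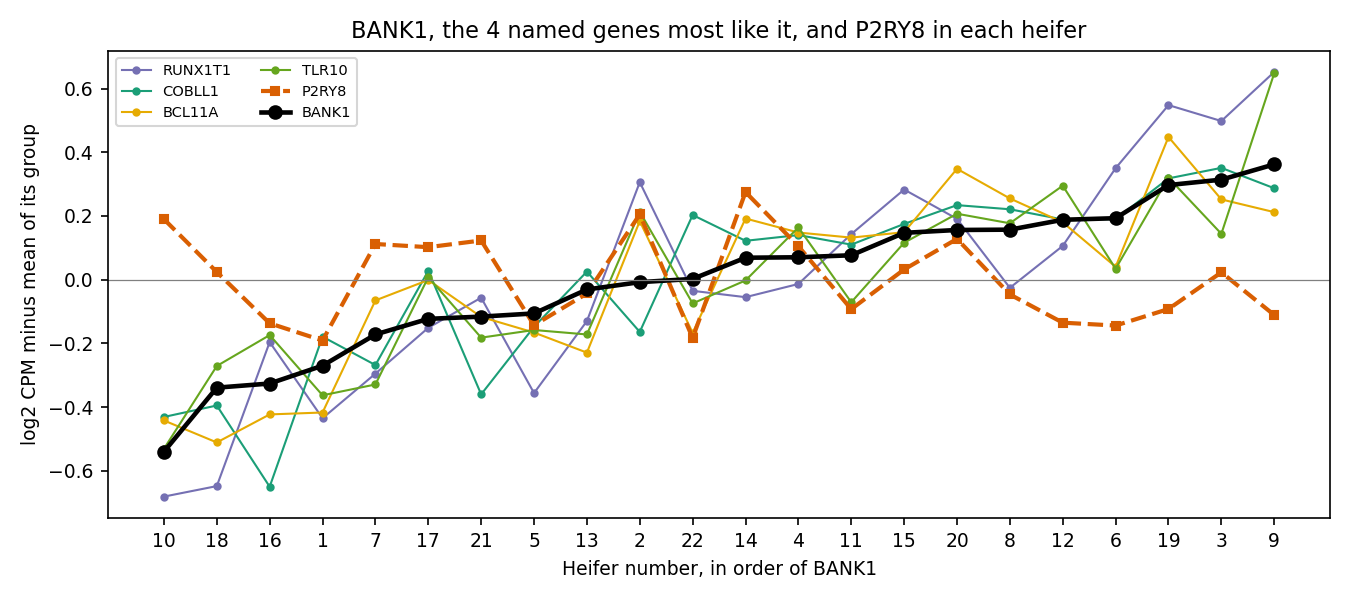
Log2 CPM minus the mean of the group for BANK1, for the 4 named genes most like it and for P2RY8, with the 22 heifers ordered by BANK1. The 4 genes follow BANK1 upward with correlations from 0.878 to 0.913, and P2RY8 does not.

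Of 28 genes of B cell receptor signalling, the pathway of BANK1, 4 had a name here. PRKCB, a protein kinase C, and MALT1, a protease, act between the receptor and NF-kB, and ITPR1 and ITPR2 are inositol trisphosphate receptors, of the family that BANK1 binds. PRKCB had a breed log2 fold change of 0.08 (unadjusted p = 0.0442), MALT1 of 0.12 (unadjusted p = 0.0431), ITPR2 of 0.12 (unadjusted p = 0.0412) and ITPR1 of 0.17 (unadjusted p = 0.0896). All 4 were thus higher in Holstein heifers, with 3 at an unadjusted p under 0.05 and 0 at an adjusted p under 0.05 in edgeR, where adjusted values were 0.45 to 0.515. Over all genes, 4.56% were higher at an unadjusted p under 0.05, and no reading of the list follows from 4 members named by their fertility p. ITPR1 ran from 151 to 212 CPM in Holstein Fertile, from 174 to 293 in Holstein Sub-Fertile, from 136 to 222 in Angus Fertile and from 159 to 211 in Angus Sub-Fertile heifers. It had the strongest correlation with BANK1 of the 4, at 0.795, and a correlation of 0.16 with P2RY8.

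Of 20 genes of the GNA13 pathway and of B cell migration, on the side of P2RY8, 3 had a name here. RHOA is the small GTPase that GNA13 activates through exchange factors, ROCK1 a kinase that RHOA activates, and GPR183 a receptor for oxysterols that guides B cells in lymphoid tissue. The breed log2 fold change was 0.07 for RHOA (unadjusted p = 0.0968), 0.17 for ROCK1 (unadjusted p = 0.00643) and 0.18 for GPR183 (unadjusted p = 0.0337), with 2 of 3 at an unadjusted p under 0.05 and 0 at an adjusted p under 0.05 in edgeR, against 4.56% of all genes higher at an unadjusted p under 0.05. The fold changes of the 3 genes were above 0 and that of P2RY8 was below 0. ROCK1 had a correlation of -0.536 with P2RY8, and GPR183 had 0.754 with BANK1 and -0.0754 with P2RY8. Of 9 other P2Y receptor genes, 0 had a name here.

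Markers of other blood cells were set beside the genes as far as they were named. Summed levels of 4 of 11 neutrophil markers (CSF3R, MMP9, TGM3 and PGLYRP1) ran from 119 to 353 CPM in Holstein Fertile, from 262 to 652 in Holstein Sub-Fertile, from 242 to 391 in Angus Fertile and from 230 to 528 in Angus Sub-Fertile heifers. Correlations with a marker list used the mean log2 CPM of its named members, not their sum. For the neutrophil markers the correlation was 0.244 with BANK1 (permutation p = 0.389, adjusted p = 0.611) and -0.094 with P2RY8 (permutation p = 0.698, adjusted p = 0.768). Single neutrophil markers differed in sign. With BANK1, CSF3R had -0.0801, MMP9 0.307, TGM3 0.19 and PGLYRP1 0.0649. With P2RY8, in the same order, they had -0.234, -0.139, -0.147 and 0.419. Summed levels of 2 of 8 platelet markers (ITGA2B and GP9) ran from 37.5 to 73.1 CPM in Holstein Fertile, from 33.8 to 47.2 in Holstein Sub-Fertile, from 33.1 to 68.8 in Angus Fertile and from 33.8 to 50.6 in Angus Sub-Fertile heifers. Summed levels of 2 of 7 eosinophil and basophil markers (CCR3 and FCER1A) ran from 45 to 73 CPM, from 31.3 to 57.3 CPM, from 39.2 to 73.4 CPM and from 37.2 to 64 CPM in the same groups. None of these named markers was at 0 in any heifer.

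The largest correlations with markers were those of P2RY8 with platelet and with eosinophil and basophil markers, and neither passed the adjusted test. The Pearson correlation of P2RY8 was 0.587 with the platelet markers (permutation p = 0.00624, adjusted p = 0.0686; Spearman 0.583, permutation p = 0.00994, adjusted p = 0.109). With the eosinophil and basophil markers it was 0.56 (permutation p = 0.0135, adjusted p = 0.0745; Spearman 0.485, permutation p = 0.0336, adjusted p = 0.185). By single marker, the correlation with P2RY8 was 0.506 for CCR3 (40.2 CPM on average) and 0.0665 for FCER1A (9.98 CPM). CCR3 alone thus followed P2RY8 more closely than FCER1A alone. It was 0.467 for ITGA2B and 0.59 for GP9. In Angus heifers alone the values were 0.748 and 0.788 (n = 12, adjusted permutation p = 0.0307 for each), and in Holstein heifers alone 0.372 and 0.281 (n = 10, adjusted permutation p = 0.706 for each), and the difference between breeds was not tested. Without heifers 2 and 14, the farthest from the median of P2RY8, the values were 0.495 and 0.511. Over 14 units, with each close pair averaged, they were 0.51 and 0.578 (adjusted permutation p = 0.341 for each). The Angus heifers include close pairs, which were not averaged in the values for that breed. The part of platelets, eosinophils or basophils in the level of P2RY8 was not tested.

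For BANK1 the same relations were weak, at -0.152 with platelet markers (adjusted permutation p = 0.672) and -0.0612 with eosinophil and basophil markers (adjusted permutation p = 0.8). Of 8 plasma cell markers, XBP1 and MZB1 were named. Their sum ran from 140 to 318 CPM in Holstein Fertile, from 157 to 253 in Holstein Sub-Fertile, from 181 to 337 in Angus Fertile and from 151 to 258 in Angus Sub-Fertile heifers. Their mean log2 level had a correlation of -0.262 with BANK1 (adjusted permutation p = 0.611) and 0.296 with P2RY8 (adjusted permutation p = 0.582). Taken singly, XBP1 had -0.478 and MZB1 -0.164 with BANK1, and 0.315 and 0.273 with P2RY8. With log2 total counts, the depth of a library, the correlation was 0.209 for BANK1 (adjusted permutation p = 0.611) and 0.318 for P2RY8 (adjusted permutation p = 0.582). Without heifers 10 and 18, that of BANK1 with depth was 0.542 (permutation p = 0.0195, adjusted p = 0.1). With log2 total counts as a covariate, the breed difference was 0.297 for BANK1 and -0.131 for P2RY8, and their adjusted p-values in edgeR were 0.556 and 0.664.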

How the data were processed

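The authors aligned the reads to ARS-UCD1.2 with hisat2, removed duplicates assigned fragments to Ensembl genes with featureCounts and deposited raw counts of 27607 genes. No source used here gives the strand setting, so overlapping genes on opposite strands are uncertain. Groups came from the labels. Gene names came from the annotation in a shortened copy of a supplement of the study, ordered by fertility p, and the part at hand names 1227 genes. The members and lists were chosen with earlier results of these data known.

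The filter kept 13535 genes whose CPM, after TMM scaling, exceeded 1 in 5 or more heifers. edgeR 4.0.16 (R 4.3.3) fitted breed and fertility with total counts as library sizes, and coefficients were tested by the robust quasi-likelihood test with Benjamini-Hochberg adjustment over all genes. DESeq2 1.42.0 was an alternative. SE is the log2 fold change over the root of F. The model was run on simulated data with independent counts for each heifer and no close pairs. That run therefore says nothing on how close pairs affect the p-values here.

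Close pairs were mutually nearest heifers whose coefficient of variation, over genes with a mean CPM above 20, was under 0.5 of the median. Correlations used log2 CPM (prior count 2) with group means taken out and two-sided tests of 100000 permutations within groups (scipy 1.17.1). The genes named are the members, the 8 named genes most like each, and list members. Plasma cell, platelet, eosinophil and basophil lists, depth, and fits without heifers 10 and 18 were added after the data had been seen. Other alternatives were TMM factors, filters, estimation that was not robust, covariates, single breeds or fertility groups and each heifer left out.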

Additional observations from a re-analysis of the deposited data

How the results depend on the processing

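The breed differences kept their sign under all 11 alternatives and with each heifer left out, and none had an adjusted p under 0.05. With close pairs as blocks they were 0.0255 for BANK1 (SE 0.0483) and -0.0177 for P2RY8 (SE 0.0807), each smaller than its SE, so the sign says little there. Leaving out 1 heifer gave 0.205 (without heifer 3) to 0.306 (without heifer 10) for BANK1 and -0.182 to -0.129 for P2RY8. The fertility differences then ran from -0.201 to -0.103 and from 0.175 to 0.225. The interaction of BANK1 ran from -0.23 to -0.0208 and that of P2RY8 from -0.0252 to 0.0826. With close pairs as blocks the BANK1 interaction turned to 0.0589 and that of P2RY8 was 0.246, and the P2RY8 interaction turned to -0.0201 without heifers 10 and 18. The cause was not tested. The correlation of BANK1 and P2RY8 ran from -0.306 to 0.0106 with 1 heifer left out, and was 0.0334 without heifers 10 and 18 and -0.371 with TMM factors. That of BANK1 with neutrophil markers ran from 0.156 to 0.404. That of P2RY8 with neutrophil markers ran from -0.214 to 0.0197, and was 0.0458 in Holstein heifers alone. Without heifers 10 and 18, BANK1 had a correlation of 0.229 with plasma cell, 0.0714 with platelet and 0.126 with eosinophil and basophil markers. With 1 heifer left out, the plasma cell value ran from -0.358 to 0.0151 and the eosinophil and basophil value from -0.188 to 0.0728. BANK1 with depth was -0.0894 in Holstein heifers alone, and P2RY8 with plasma cell markers was -0.0873 in Angus heifers alone. P2RY8 with platelet markers passed the adjusted threshold in 4 of the 22 fits that left out 1 heifer, and with eosinophil and basophil markers in 2.

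For breed, edgeR called 0 genes and DESeq2 called 10 at an adjusted p under 0.05. At an unadjusted p, 1440 genes were called for breed, against 233 with close pairs as blocks, and 354 for fertility, against 639 with close pairs as blocks and 125 without heifers 10 and 18. The interaction had 1408 genes, 2343 without heifers 10 and 18 and 936 with close pairs as blocks, where 1 gene passed at an adjusted p. Correlations and a covariate from the 16 B cell markers were not run, because none is named here. The labels number each heifer once, so the numbers pair no heifers, and the blocks are the close pairs found in the data. P2RY8 had 200 to 1079 counts per heifer and BANK1 3479 to 18352. Without blocks, the SE of P2RY8 was nevertheless the smaller one for breed, fertility and their interaction. With close pairs as blocks, the SE of P2RY8 was the larger one for each of these. It was 0.0807 against 0.0483 for BANK1 for breed, 0.0632 against 0.0392 for fertility and 0.118 against 0.078 for the interaction.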
